A study of Mus musculus with 6 samples.

Results

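Venous endothelial cells of the aged mouse lung were followed in 6 single-cell RNA libraries, each from 1 mouse. The cells were chosen by their own unique molecular identifier counts (UMIs, counts of captured RNA molecules). A barcode, the tag that stands for 1 cell, had to show 500 genes or more and 1000 UMIs or more, of which no more than 15% were mitochondrial. It further needed at least 1 UMI of the endothelial cadherin Cdh5, at least 1 of Slc6a2 and at least 2 of Vwf. At most 1 UMI of Ednrb was allowed, and Ptprc, Pdgfra and Epcam, which mark leukocytes, fibroblasts and epithelium, had to be at 0. The rule found 3493 cells of 94392 barcodes, and these were 13.0% of the 26846 barcodes that met the same limits on Cdh5, Ptprc, Pdgfra and Epcam (called endothelial below).

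All mice were C57BL/6 males of 21 months. The 3 p16-DTR-labelled libraries were made from mice of the genotype p16-CreERT2/R26-LSL-DTR. The 3 control libraries were made from p16-CreERT2 mice, which lack the R26-LSL-DTR allele. The CreERT2 recombinase is therefore shared by both groups, and it is driven by p16, a transcript of Cdkn2a. In the mice labelled p16-DTR, tamoxifen-activated Cre opens a stop cassette and the diphtheria toxin receptor is made in cells with p16 activity. Both groups received tamoxifen (TAM) on 5 days, diphtheria toxin (DT) on 5 days that began 2 weeks later, and were left for another 2 weeks before harvest. The treatment was planned to remove cells with high p16. A library mixed 20000 sorted CD45- cells with 9000 CD45+ cells of one lung after Liberase digestion, so cell numbers are set in part by digestion and sort. No group without toxin or without tamoxifen was analysed here.

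Lung veins carry oxygenated blood from the capillaries to the heart. In many tissues, though not in every one, venules are the usual site where leukocytes leave the blood. Their endothelium stores von Willebrand factor (Vwf) and P-selectin (Selp) in Weibel-Palade bodies, from which both reach the surface within minutes of a stimulus. The noradrenaline transporter Slc6a2 is a marker of lung veins in the mouse, and the transcription factor Nr2f2 sets venous identity. Endothelial cells also answer stretch, injury and inflammatory signals with a short burst of immediate early genes, such as Egr1, Fos and the Nr4a nuclear receptors, which tissue digestion itself is known to set off.

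The venous cells numbered 648, 596 and 572 in the p16-DTR-labelled libraries and 463, 549 and 665 in the control libraries. Their median depth was 16114 to 17432 UMIs and 4470 to 4616 genes per cell, and their summed counts held 7646977 to 12098737 UMIs per library. Whole libraries held 13482 to 17332 barcodes. Of the venous barcodes, 2 were seen in more than 1 library over the 15 pairs of libraries. Predicted doublets made up 3.24% to 6.77% of the venous cells and were kept. Airway RNA stood apart in p16-DTR 1, where the secretory gene Scgb1a1 reached 1972 CPM (counts per 1000000 UMIs) in the venous cells, against 22.3 to 39.3 CPM in the other 5 libraries. Fibroblast and mesothelial RNA was highest in control 1, with Dcn at 67.7 CPM and Upk3b at 16.1 CPM. Control 3 also had Upk3b at 6.69 CPM, against 0.354 to 0.492 CPM in the remaining libraries. The sum of 4 mesothelial markers averaged 14.4 CPM in the controls and 0.602 CPM in the p16-DTR-labelled libraries.

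The promoters of 4 genes named below are shown first, since these genes fell in the p16-DTR-labelled libraries. They were picked for that and for a shared short motif, so the match is no finding about them. The motif is TGACG, read on either strand (CGTCA on the other), the half-site of the cyclic AMP response element. The full site TGACGTCA holds both half-sites overlapping. Sequences are the stretches that hold the motifs within the 250 bases before the first listed RefSeq start (GRCm38.p6), printed 5' to 3' on the gene's strand, with the motifs in capitals. The stretches lie at chr15:101266603-101266820 (plus strand) for Nr4a1, chr2:57124100-57124213 (minus) for Nr4a2, chr7:45526269-45526290 (minus) for Ppp1r15a and chr1:134079304-134079331 (minus) for Btg2.
Nr4a1: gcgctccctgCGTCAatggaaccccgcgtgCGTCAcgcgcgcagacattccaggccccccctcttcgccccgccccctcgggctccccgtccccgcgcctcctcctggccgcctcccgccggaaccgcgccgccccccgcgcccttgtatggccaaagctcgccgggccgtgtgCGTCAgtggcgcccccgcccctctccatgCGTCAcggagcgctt
Nr4a2: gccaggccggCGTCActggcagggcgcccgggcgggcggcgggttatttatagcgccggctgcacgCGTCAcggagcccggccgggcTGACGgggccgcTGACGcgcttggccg
Ppp1r15a: gcctctccggTGACGTCAgcac
Btg2: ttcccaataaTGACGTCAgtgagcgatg
Nr4a1 and Nr4a2 each hold 4 half-sites, and Ppp1r15a and Btg2 each hold 1 full site. The Nr4a1 start used here lies inside the annotated span of the gene. Of 25 genes in the list of immediate early genes and genes of dissociation stress, 20 matched a promoter, of which 11 (55.0%) held a half-site and 2 (10.0%) a full site. Among 27025 promoters of all genes the shares were 17.9% and 1.62%. Of the matched list members, Fosl2 and Zfp36, which fell, held none, while Nr4a3 held 4 half-sites and Dusp1 a full site, and neither was called. A motif match is a description of the sequence and was not tied here to any factor.

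The cells chosen by Slc6a2 and Vwf also carried the other venous markers, which the rule did not use but which were measured in the same cells, so the values are a description with no test. Slc6a2 (chr8:92960079-93001667, GRCm38, plus strand) had a median of 21 to 24 UMIs per cell, and Vwf (chr6:125546774-125686679, plus strand) of 40 to 47. Amigo2 (chr15:97244125-97247287), an adhesion molecule, was found in 75.3% to 87.0% of the cells of a library. Prss23 (chr7:89507783-89527187), a serine protease, was found in 95.6% to 97.3%. The mean level of Amigo2 over the 6 libraries was 327 CPM in venous cells, 7.74 CPM in general capillary cells, 27.8 CPM in arterial cells and 10.3 CPM in aerocytes (the capillary cells of gas exchange). These comparison populations were also picked by UMIs, the general capillary cells with Gpihbp1 and Kit (4888 cells), arterial cells with Gja5 and Bmx or Dkk2 (1094 cells) and aerocytes with Ednrb and Car4 (2420 cells). The 6 artery markers summed to 252 to 408 CPM in venous cells, 928 to 1189 CPM in general capillary cells and 2255 to 2653 CPM in arterial cells. Gja5, Bmx and Dkk2 are among the 6, so part of the arterial sum is set by the choice of those cells. In the general capillary sum Gja5 is at 0 by the rule for those cells. Of the 5 lymphatic markers, 4 averaged under 5 CPM in venous cells (Pdpn, the highest of these in a single library, reached 7.72 CPM in control 1), and the fifth, Lyve1, was at 1729 to 2186 CPM.

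The genes that stood highest above general capillary cells are given as a description, since both populations were chosen by their genes. The venous cells were chosen by venous genes. The general capillary cells were chosen by their own, Kit among them, and by few or no UMIs of Vwf and Slc6a2. Selp, the adhesion receptor that lets leukocytes roll, averaged 337 CPM in venous and 1.15 CPM in general capillary cells. Vcam1, which holds leukocytes by their integrins, averaged 331 CPM in venous, 5.08 CPM in general capillary and 231 CPM in arterial cells, and thus was no mark of veins alone. Car8, a carbonic anhydrase relative without enzyme activity, averaged 265 CPM against 0.572 CPM in general capillary and 42.7 CPM in arterial cells. Some of these genes were low in arterial cells too. The retinoic acid receptor Rarb averaged 418 CPM in venous, 4.89 CPM in general capillary and 1.48 CPM in arterial cells. Bst1, an ADP-ribosyl cyclase, averaged 164 CPM in venous and 3.95 CPM in arterial cells, and Dnm3, a dynamin of membrane fission, 705 and 14.0 CPM. Others were shared with arteries. The membrane repair protein Myof averaged 239 CPM in venous, 3.23 CPM in general capillary and 279 CPM in arterial cells, and the secreted factor Cytl1 200, 1.55 and 322 CPM. Palld, Igfbp5, Lpcat2, Zfpm2 and Tmem45a averaged 111 to 298 CPM in venous and at most 10.1 CPM in general capillary cells. The matrix proteoglycan Bgn lay between, at 296 CPM in venous, 10.9 CPM in general capillary and 168 CPM in arterial cells. Among genes lower in venous than in general capillary cells, Car4, a membrane carbonic anhydrase, averaged 27.5 against 211 CPM, and the semaphorin Sema3g 52.7 against 345 CPM.

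**Figure D1:**
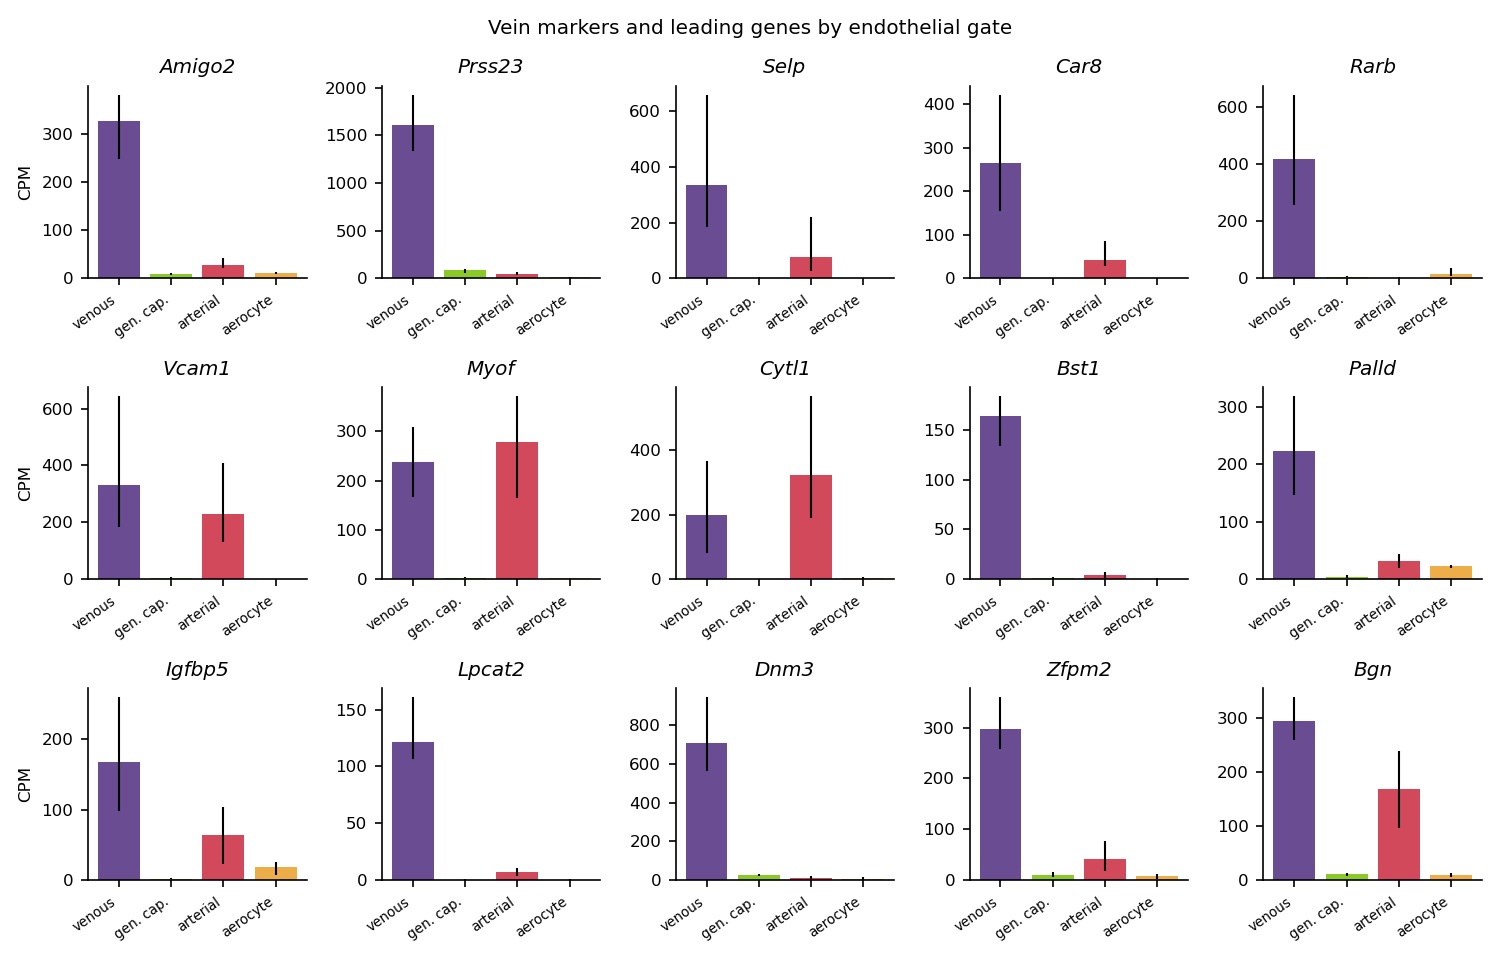
Mean level (CPM) of venous and comparison genes in venous, general capillary, arterial and aerocyte cells. Bars are means of 6 libraries and lines run from the lowest to the highest library, and Amigo2 averages 327 CPM in venous cells and at most 27.8 CPM in the others.

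The venous cells were not uniform. Each cell was thinned to 5000 UMIs, which left 134 shallower cells out, and the rest were set out by their Vwf UMIs. Other venous genes followed Vwf from step to step. Between cells with 0 to 4 and cells with 20 to 39 Vwf UMIs, Slc6a2 went from 373 to 2556 CPM, Amigo2 from 120 to 450 CPM, Prss23 from 581 to 2264 CPM, Nr2f2 from 94.1 to 371 CPM and elastin (Eln) from 177 to 666 CPM. Of the general capillary markers set out this way, Kit went from 288 to 23.7 CPM and Gpihbp1, which anchors lipoprotein lipase, from 808 to 584 CPM, while Plvap, a component of endothelial diaphragms, went with Vwf from 906 to 1295 CPM. These are levels within 1 population cut by a gene of the rule, so they describe a range and not separate cell types. The lowest step held 9.46% to 16.3% of a library's cells and the step of 20 to 39 UMIs 20.2% to 32.0%, and control 1 was at the end of both ranges.

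**Figure D2:**
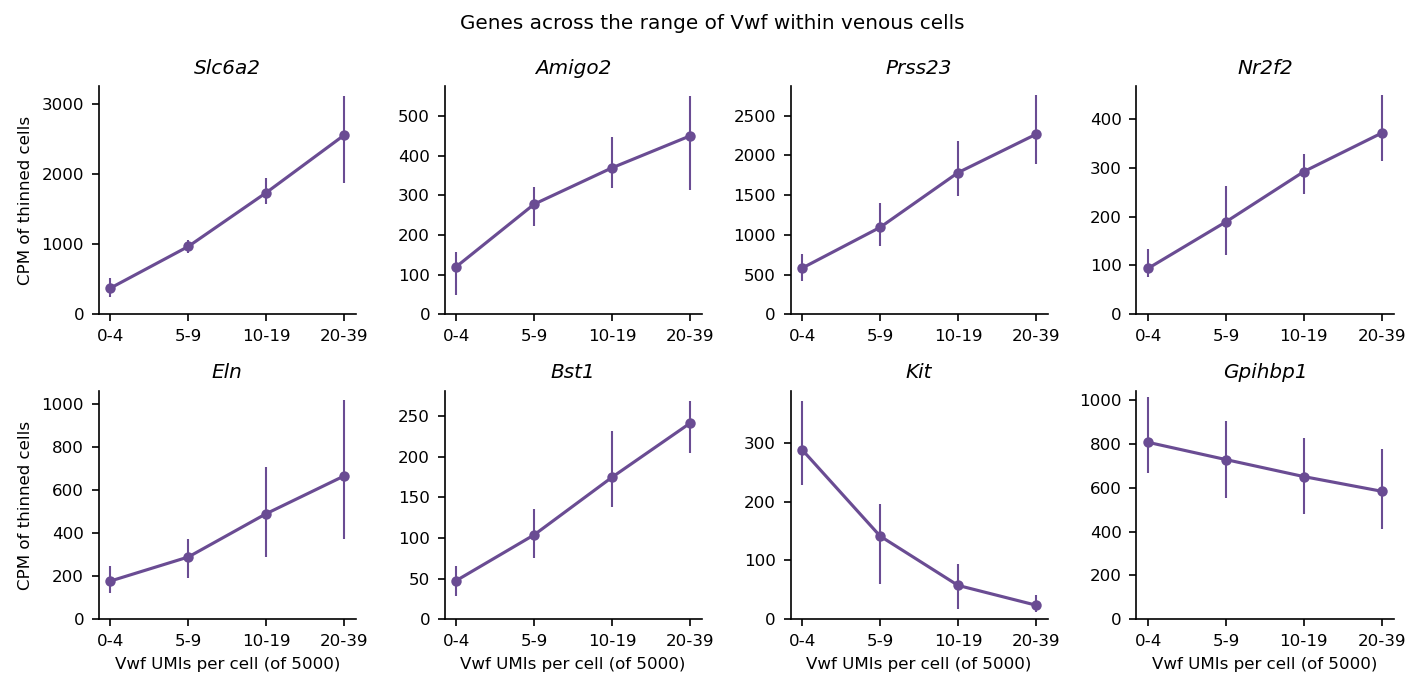
Level (CPM after thinning to 5000 UMIs per cell) of venous and general capillary genes in venous cells by their Vwf UMIs. Points are means over libraries and lines run from the lowest to the highest library; the step of 40 or more UMIs, with 16 cells, is not drawn, and Kit goes from 288 to 23.7 CPM as Slc6a2 goes from 373 to 2556 CPM.

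Cells at the edges of the rule were few except for Slc6a2. The 45 cells with exactly 2 Vwf UMIs had 31.9 CPM of Amigo2 and 339 CPM of Prss23, and the 39 cells with 1 Vwf UMI just outside had 19.9 and 162 CPM. The 345 cells with 1 Slc6a2 UMI had 70.0 CPM of Amigo2 and 313 CPM of Prss23, and the 11409 cells with no Slc6a2 UMI that met every other limit had 19.7 and 103 CPM. The 85 cells with 1 Ednrb UMI had 247 CPM of Amigo2 and 1319 CPM of Prss23, and the 15 with 2 Ednrb UMIs just outside had 252 and 679 CPM. Between cells of one library, the largest spread beyond counting noise was in Fos, Timp3, Selp, Adgrl3, Sema3c, the ribosomal-RNA-like Gm42418, Egr1, Fosb, Emp1 and Vcam1. Selp was found in 19.2% to 41.5% of the cells of a library and Vcam1 in 49.0% to 83.2%.

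The share of endothelial cells in the venous population did not differ between groups beyond the spread of mice. It was 14.7%, 12.9% and 11.7% in the p16-DTR-labelled libraries and 12.3%, 12.2% and 14.2% in the control libraries. The means were 13.1% ± 1.54 and 12.9% ± 1.14 (SD, n = 3 each), a difference of 0.164 percentage points (two-sided exact permutation test, p = 0.9, where the smallest p that 3 against 3 allows is 0.1). The groups overlapped. The difference was between -0.652 and 0.878 percentage points when each library was left out in turn. No loss or gain of venous cells by this rule was thus detectable with 3 mice per group. Venous cells without a Kit UMI numbered 336, 329 and 295 of 4401, 4624 and 4904 endothelial cells, against 360, 356 and 489 of 3765, 4482 and 4670 in the controls. That subset was chosen after the data were seen, and its share was not tested.

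The targeted gene went against the label. Cdkn2a (chr4:89274471-89294653, minus strand), which encodes p16 and Arf, was at 3.28, 3.83 and 3.74 CPM in venous cells of the p16-DTR-labelled libraries and at 0 in all 3 control libraries. The venous cells of the libraries labelled as depleted of p16-high cells thus held more Cdkn2a, and this bears on every direction drawn below. The labels are used here as given. Whether they name the groups rightly, and whether reads of a transgene add to the Cdkn2a count, was not tested. A Cdkn2a UMI was found in 83 of 1816 cells (4.57%, exact binomial interval 3.66% to 5.63%) of the p16-DTR-labelled libraries and in 0 of 1677 control cells, which allows a share of up to 0.179% (3 counts of the total; the exact binomial bound is 0.220%). The pooled level was at least 36.0-fold higher, against a floor of 3 counts over the control group. The adjusted p was 0.00816 (edgeR quasi-likelihood test, Benjamini-Hochberg adjustment over all genes tested), and without p16-DTR 3 it was 0.0598. The 3' assay does not tell p16 from Arf transcripts where they share their end.

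The background of that signal was measured in neutrophils, taken as cells that lack Cdkn2a. After thinning to 5000 UMIs, 2.42% (1.75% to 3.26%) of the venous cells of the p16-DTR-labelled libraries had a UMI, against 1.36% (0.913% to 1.95%) of neutrophils. These intervals pool the cells of all mice in the group and cover counting error only. Their overlap is therefore no test of a difference. Without thinning the neutrophils of these 3 libraries had 4.07% (3.31% to 4.94%), at median depths of 9828 to 11605 UMIs, close to the 4.57% of the deeper venous cells. The unthinned shares by library overlapped, at 3.03% to 5.97% in neutrophils and 4.01% to 4.90% in venous cells. After thinning, the shares of these libraries did not overlap, at 1.25% to 1.5015% in neutrophils and 1.96% to 2.96% in venous cells. This difference between neutrophils and venous cells was not tested. In the control libraries the thinned share was 0 of 1624 venous cells and 0 of 1653 neutrophils. The group difference in Cdkn2a was thus also present in cells taken to lack the gene, and the share of the venous signal that comes from free RNA was not tested. The thinned venous share per library was 1.96%, 2.96% and 2.38% against 0 (2.43% ± 0.502, SD, n = 3; exact permutation p = 0.1, the smallest this design allows). The general capillary cells had 1.34% against 0.253% in the controls after thinning, and the arterial cells had 1.40% against 0 of 572. On the unthinned summed counts, Cdkn2a averaged 3.28 against 0.70 CPM in general capillary cells and was called there (adjusted p = 0.0242 by edgeR). Aerocytes, with the highest shares, had 9.73% in the p16-DTR-labelled libraries and 9.09% in the control libraries after thinning. By library these were 8.17% to 11.3% and 5.65% to 10.4%, so the groups overlapped there.

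The other genes of the system were read in the same cells. The feature named tdTomato, a fluorescent reporter for which the labels name no allele, was at 0.177, 0.574 and 0.295 CPM in the p16-DTR-labelled libraries and at 0 in the controls, from 11 UMIs in 11 of 1816 cells. Cdkn1a (p21), the other main inhibitor of cycling, was at 705, 559 and 897 CPM against 418, 518 and 614 CPM. The groups overlapped and the change of 0.49 ± 0.18 (log2, SE) did not pass the test (adjusted p = 0.194). Hbegf (chr18:36504927-36515805, minus strand), a growth factor of the EGF family whose human form is the receptor for diphtheria toxin, was at 23.03, 28.3 and 22.2 CPM against 54.3, 50.4 and 42.3 CPM. It fell by 0.98 ± 0.13 on the log2 scale (adjusted p = 0.0146), and 5 of the 6 fits without 1 library called it, the exception being the fit without p16-DTR 3 (adjusted p = 0.0646).

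Between groups, 337 of 12984 tested genes were called at an adjusted p under 0.05 (edgeR), or 2.6%. Of these, 123 (0.947% of those tested) were higher and 214 (1.65%) lower in the p16-DTR-labelled libraries. All 337 had groups that did not overlap, as had 24.2% of all tested genes. Their median absolute change was 0.68 on the log2 scale, and 89 changed by more than 1. The count depended strongly on which mice were in the fit, with 18 calls without p16-DTR 3, 88 without p16-DTR 1, 104 without control 1, 158 without p16-DTR 2, 224 without control 3 and 383 without control 2, and all 337 kept their direction in each of these fits. The calls that stood in all 6 were 15, namely Nr4a1, Nr4a2, Ppp1r15a, Apold1, St6gal1, Pgm5, Fbn1, Cirbp, Ints6, Kcnc2 and Sorbs2 among the lower genes and Klf10, Lilr4b, Chd9 and Gbe1 among the higher. Every other call named below was lost in at least 1 of these fits, and 51 of the 337 were lost in all 6.

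Of 24 tested immediate early genes, 9 fell in the p16-DTR-labelled libraries and none rose (37.5%, beside 2.6% of all genes), and 23 of the 24 had a negative log2 change, with a median of -0.55 beside -0.0074 over all genes tested. The nuclear receptor Nr4a1 was at 83.1, 72.7 and 58.2 CPM against 209, 186 and 215 CPM. The groups did not overlap, and the lowest control was more than 2 times the highest p16-DTR-labelled library. It fell by 1.495 ± 0.12 (log2, SE; adjusted p = 0.00662). Its relative Nr4a2 was at 29.5, 29.0 and 31.6 CPM against 71.4, 72.9 and 105 CPM and fell by 1.46 ± 0.15 (adjusted p = 0.00785). The zinc finger factor Egr1 was at 484, 729 and 718 CPM against 1903, 1195 and 1477 CPM and fell by 1.23 ± 0.20 (adjusted p = 0.0215). Egr3, with a mean of 32.5 CPM in the controls, fell by 1.82 ± 0.30. The mRNA-decay factor Zfp36, the anti-proliferative factor Btg2, and Ier2, Junb and Fosl2 fell by 0.62 to 0.75.

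The list did not move as one. Fos was at 870, 1210 and 1097 CPM against 1528, 1429 and 1484 CPM, with no overlap but an adjusted p of 0.0712. Jun, its partner in the AP-1 factor, was at a change of -0.17 (adjusted p = 0.470) and Klf4, a flow-induced factor, at -0.08 (adjusted p = 0.722). Ppp1r15a, which restarts translation after stress and is not on the list, was at 182, 210 and 190 CPM against 343, 353 and 358 CPM. It fell by 0.84 ± 0.08 (adjusted p = 0.00666). Apold1, an endothelial early response gene, fell by 0.97 ± 0.09 and the cold-inducible RNA-binding protein Cirbp by 0.81 ± 0.07. In general capillary cells of the same mice 4 of the 24 genes were called, beside 1.03% of all genes tested there, and the median was -0.41. The labels give no processing day or order for the mice.

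Of 16 tested NF-kB subunits and feedback genes, 5 fell (31.3%, beside 2.6%) and none rose, with a median of -0.27. The deubiquitinase Tnfaip3 (A20), which shuts the pathway off, was at 39.8, 38.1 and 31.5 CPM against 62.2, 57.2 and 70.2 CPM and fell by 0.78 ± 0.11 (adjusted p = 0.0165). Nfkbiz, a nuclear cofactor of the pathway, was at 265, 346 and 303 CPM against 650, 435 and 536 CPM (fell by 0.81 ± 0.15, adjusted p = 0.0305). The subunits Rel and Relb and the inhibitor of apoptosis Birc3 fell by 0.67 to 0.81. Nfkbia, the main inhibitor, averaged 906 against 1023 CPM and was not called.

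**Figure D3:**
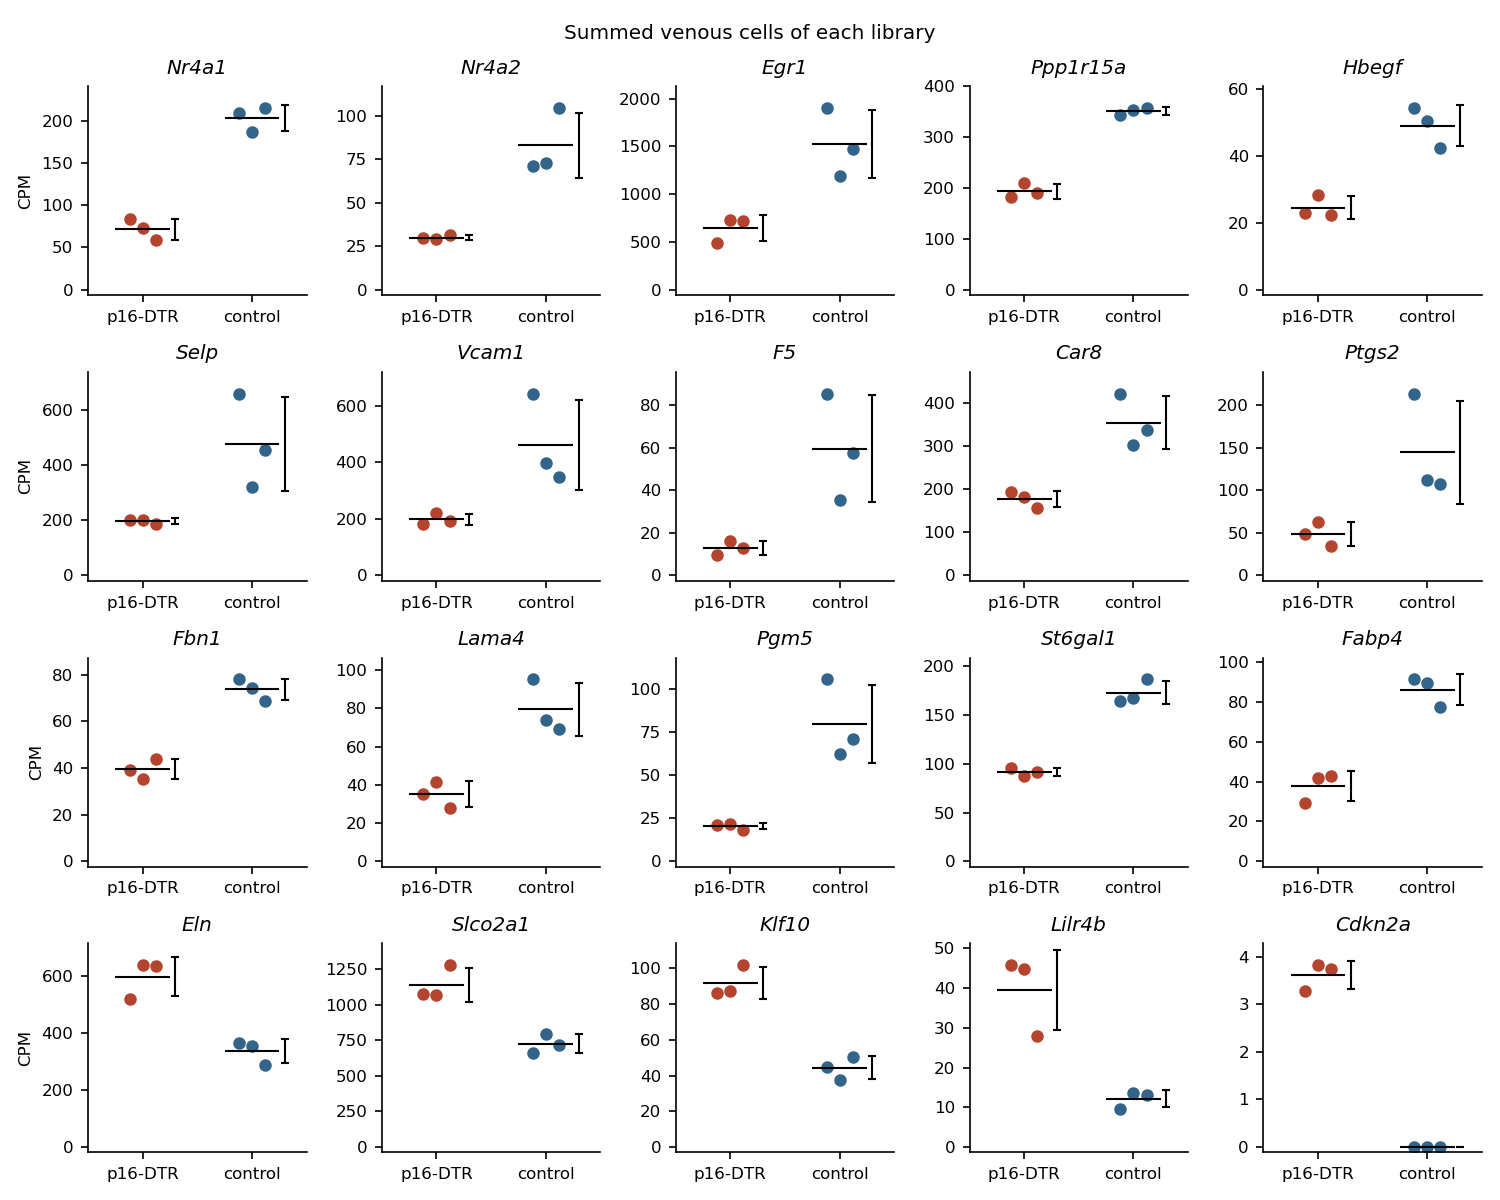
Level (CPM) of named genes in the venous cells of each library, by group. Points are libraries, lines are means and bars SD of 3 libraries; for Nr4a1 the p16-DTR-labelled libraries lie at 58.2 to 83.1 CPM and the controls at 186 to 215 CPM.

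Of the genes by which leukocytes attach to veins, 2 that were high in venous cells fell. Selp (chr1:164115264-164150026, plus strand) was at 202, 203 and 186 CPM against 658, 321 and 452 CPM. The groups did not overlap, while the controls themselves spread widely. Selp fell by 1.26 ± 0.22 (adjusted p = 0.0257), and the call was lost without any 1 of the p16-DTR-labelled libraries or without control 3. Vcam1 (chr3:116109949-116129688, minus strand) was at 183, 220 and 194 CPM against 644, 398 and 347 CPM and fell by 1.20 ± 0.21 (adjusted p = 0.0265), a call lost without any 1 of the p16-DTR-labelled libraries. Cells with a Selp UMI were 19.3%, 22.1% and 19.2% against 41.5%, 27.9% and 30.4%, and cells with a Vcam1 UMI 51.9%, 56.5% and 49.0% against 83.2%, 67.9% and 69.5%. The sialomucin Podxl rose by 0.38 ± 0.07 (adjusted p = 0.0267), a call that no fit without 1 library kept. These 3 calls were 16.7% of the 18 tested genes of the list, beside 2.6% of all genes. Not called were, among others, E-selectin (Sele), at 18.5, 25.3 and 23.4 CPM against 73.9, 11.8 and 20.5 CPM, and Icam1, with an adjusted p of 0.183.

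Coagulation factor V (F5, chr1:164151838-164220277, next to Selp) was at 9.39, 15.97 and 13.0 CPM against 85.4, 35.4 and 57.6 CPM. It fell by 2.19 ± 0.31 (adjusted p = 0.0165), and the call was lost without p16-DTR 1 or without p16-DTR 3. It was 1 of 2 calls among 18 tested genes of haemostasis (11.1%, beside 2.6% of all genes), the other being Angpt2, a Weibel-Palade body ligand of the Tie2 receptor, which fell by 0.90 ± 0.15. Thrombomodulin (Thbd) was higher in every p16-DTR-labelled library but had an adjusted p of 0.0536. Of 27 tested vasoactive mediators and receptors, 3 were called (11.1%, beside 2.6% of all genes), namely Ptgs2, Ptgs1 and Calcrl. Cyclooxygenase 2 (Ptgs2), the inducible enzyme of prostaglandin synthesis, was at 48.8, 62.9 and 34.6 CPM against 214, 112 and 107 CPM and fell by 1.54 ± 0.29 (adjusted p = 0.0336). The constitutive enzyme Ptgs1 moved in the opposite direction, from 192, 220 and 202 CPM in controls to 294, 258 and 315 CPM, a rise of 0.51 ± 0.09 (adjusted p = 0.0278). The prostaglandin transporter Slco2a1, which is on no list, was at 1071, 1070 and 1277 CPM against 663, 794 and 717 CPM and rose by 0.67 ± 0.10 (adjusted p = 0.0187). Calcrl, the receptor chain for adrenomedullin, rose by 0.53 ± 0.10 from a mean of 3320 to 4756 CPM (adjusted p = 0.0320), a call that only the fit without p16-DTR 1 kept of the 6.

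Matrix genes were called in both directions. Of 37 tested, 3 rose and 3 fell (16.2%, beside 2.6% of all genes), with a median of -0.03. Eln (chr5:134702593-134747323, minus strand) was at 519, 637 and 635 CPM against 365, 355 and 287 CPM, and no library of one group reached the other. It rose by 0.85 ± 0.12 (adjusted p = 0.0165), a call lost without p16-DTR 3. The basement membrane chains Col4a1 and Col4a2 rose by 0.41 and 0.47. Fibrillin 1 (Fbn1), the scaffold of elastic microfibrils, was at 39.2, 35.5 and 43.8 CPM against 78.1, 74.4 and 68.9 CPM and fell by 0.89 ± 0.09 (adjusted p = 0.00816). Laminin alpha 4 (Lama4) fell by 1.16 ± 0.16 and the protease Adamts1 by 0.51 ± 0.09. The 6 fibroblast markers, with Pdgfra at 0 by the rule, summed to 14.3 to 31.8 CPM in the p16-DTR-labelled libraries and to 13.8 to 94.7 CPM in the controls, highest in control 1. Fbn1 and Lama4 stayed called without control 1. The fibroblast gene Dcn was at 14.1, 4.21 and 5.41 CPM against 67.7, 4.32 and 18.6 CPM, so control 3 was also above the p16-DTR-labelled libraries. Whether fibroblast or mesothelial RNA adds to these calls was not tested.

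Venous identity genes were called in both directions. Of 15 tested, 4 were called (26.7%, beside 2.6% of all genes). Of these, 2 rose (Eln and Ptgs1) and 2 fell (the semaphorin and VEGF coreceptor Nrp2 and the factor Tshz2), and the median of the list was 0.01. Nr2f2 was at 292, 207 and 248 CPM against 274, 275 and 265 CPM (adjusted p = 0.671). Amigo2, at 380, 248 and 369 CPM against 336, 344 and 285 CPM, overlapped between groups (adjusted p = 0.880). Prss23 was at 1570, 1338 and 1353 CPM against 1740, 1747 and 1921 CPM, with no overlap. Its adjusted p was 0.0793 by edgeR and 0.0117 by DESeq2, an alternative test. Nrp2 was at 151, 165 and 156 CPM against 322, 242 and 233 CPM and fell by 0.74 ± 0.12 (adjusted p = 0.0220). Car8, the gene next to Selp in the order above general capillary cells, was at 193, 182 and 156 CPM against 421, 302 and 338 CPM and fell by 0.98 ± 0.13 (adjusted p = 0.0150).

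Summed markers of general capillary cells differed in level between the groups. The 5 markers summed to 3670 to 4301 CPM in the p16-DTR-labelled libraries and to 3030 to 3418 CPM in the controls, without overlap, and none of the 5 was at 0. The highest of the 5 were Cd93 and Plvap, which averaged 1682 and 1128 CPM in venous and 1770 and 738 CPM in general capillary cells. The sum is thus carried by genes that do not set the 2 populations apart. Aplnr, also among the 5, overlapped between groups in venous cells, at 24.0, 23.2 and 25.9 CPM against 18.8, 35.8 and 24.8 CPM. The sum of the 5 was 4024 to 4353 against 3715 to 3895 CPM in the general capillary cells themselves, also without overlap. Those cells were picked by Gpihbp1 and Kit, both among the 5, so part of that sum is set by their rule. In arterial cells the sum was 3228 to 3700 against 2559 to 3302 CPM, where the groups overlapped. Kit was at 140, 124 and 129 CPM against 62.8, 103 and 62.5 CPM (adjusted p = 0.0562), and 48.1%, 44.8% and 48.4% of the cells against 22.2%, 35.2% and 26.5% held a Kit UMI. Gpihbp1 averaged 747 against 542 CPM (adjusted p = 0.110). Of 12 tested genes of general capillary identity, 1 was called (8.33%, beside 2.6% of all genes), and the median was 0.25. The called gene, lipoprotein lipase (Lpl), was at 90.7, 74.4 and 115 CPM against 16.6, 50.7 and 26.4 CPM and rose by 1.58 ± 0.33 (adjusted p = 0.0480). Leaving out the cells with a Kit UMI, an alternative chosen after the data were seen, kept 2165 of the 3493 cells. Then 268 genes of 11907 were called, 204 of the 337 among them, and 332 of the 337 kept their direction. Whether calls were lost through the cells removed or through the smaller number left was not tested. Calls lost there included Lpl (adjusted p = 0.0996), the fatty acid carrier Fabp4 (from a fall of 1.17 to a change of -0.51), Angpt2, Podxl, Ltbp4, Mecom and Kcnc2. Nr4a1, Selp, Vcam1, F5, Eln, Fbn1 and Hbegf stayed called.

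**Figure D4:**
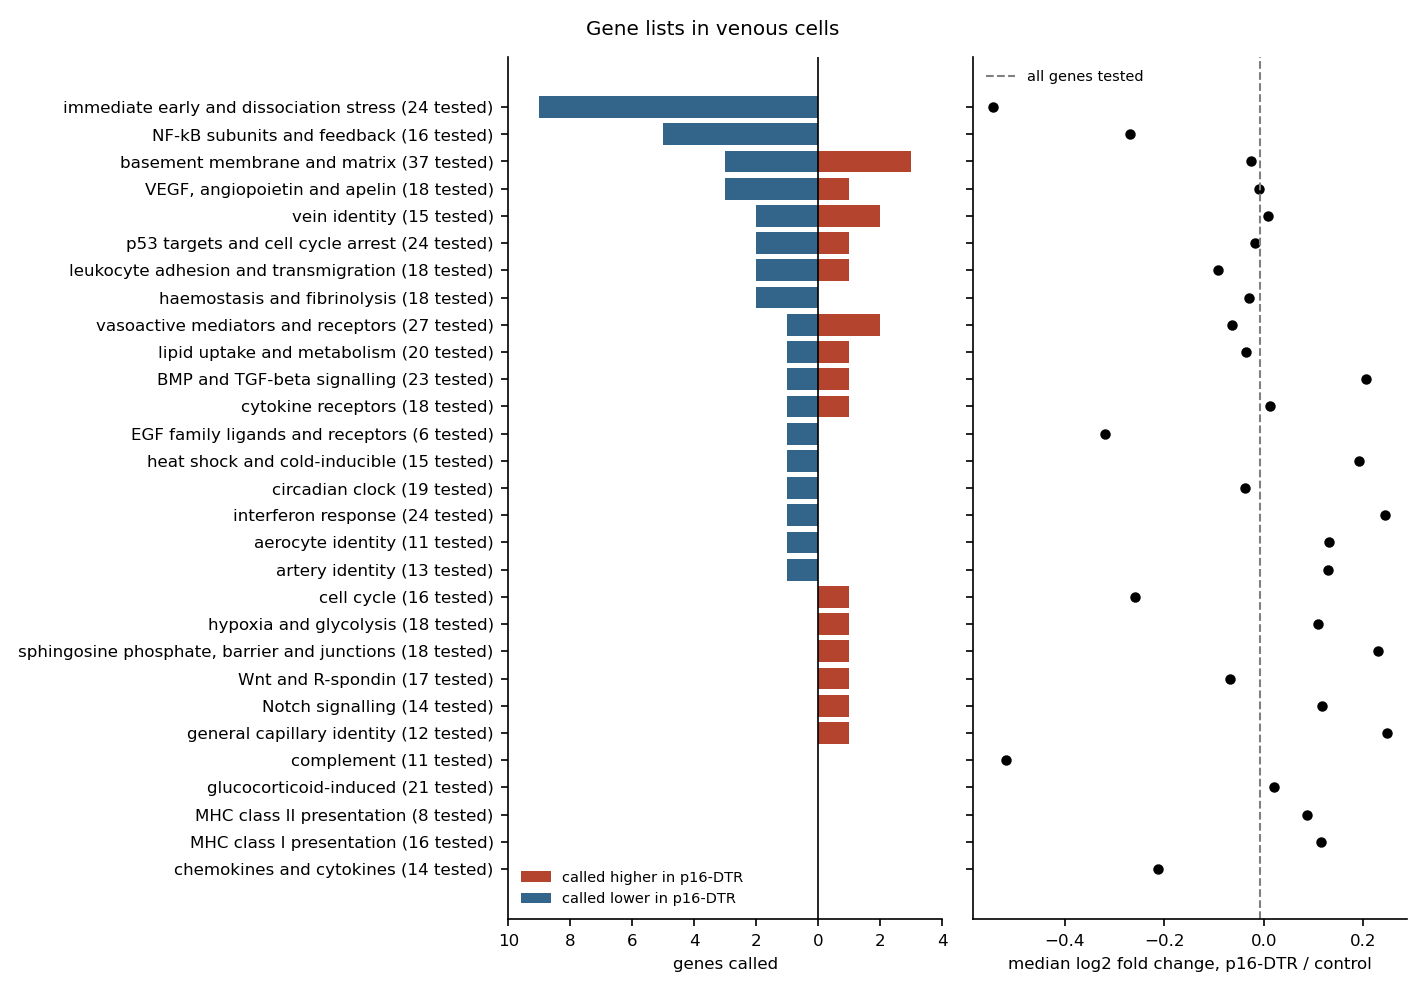
Left, number of genes called higher (red, to the right) or lower (blue, to the left) in the p16-DTR-labelled libraries in each gene list, with the number tested. Right, the median log2 change of each list, with a dashed line at the median of all genes tested (-0.0074); the immediate early list has 9 lower calls, no higher call and a median of -0.55.

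Of 18 tested genes of VEGF, angiopoietin and apelin signalling, 4 were called (22.2%, beside 2.6% of all genes), with Nrp2 and Angpt2 among them. Vegfa, the main endothelial growth factor, rose by 0.62 ± 0.13 (adjusted p = 0.0426), and its receptor Kdr fell by 0.39 ± 0.07, both kept by 1 of 6 fits without 1 library. The feedback inhibitor Smad7 was at 471, 476 and 593 CPM against 284, 363 and 302 CPM and rose by 0.71 ± 0.12 (adjusted p = 0.0265), and the TGF-beta binding protein Ltbp4 fell by 0.49 ± 0.08. The TGF-beta-induced repressor Klf10 (chr15:38291463-38300706, minus strand) was at 86.2, 87.3 and 102 CPM against 45.0, 37.6 and 50.3 CPM. It rose by 1.06 ± 0.11 (adjusted p = 0.00899) and stayed called in every fit without 1 library. Beside that 2.6%, 1 call came from each of 14 tested genes of Notch signalling (Notch4, rose by 0.41), 17 of Wnt (the antagonist Nkd1, rose by 0.43), 18 of barrier and junctions (the cAMP-activated exchange factor Rapgef4, rose by 0.63) and 19 of the clock (Npas2, fell by 1.60).

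Of 24 tested interferon genes 1 fell (4.17%, near the 2.6% of all genes), the GTPase Iigp1 by 0.45, and the median was 0.24. By edgeR none of 16 genes of MHC class I presentation was called (5 at an unadjusted p under 0.05), 15 of them with positive values. Beside the 2.6% of all genes, no call was made among 8 class II genes (1 at an unadjusted p under 0.05), 14 chemokines and cytokines (7), 11 complement genes (5, median -0.52) or 21 glucocorticoid-induced genes (9). The unadjusted counts stand beside 2422 of all 12984 tested genes with an unadjusted p under 0.05, while the 2.6% is the share at an adjusted p. The members of highest level were B2m (adjusted p = 0.134) for class I, Cd74 (0.706) for class II and Tnfsf10 (0.392) for chemokines and cytokines. Of 18 tested cytokine receptors 2 were called (11.1%, beside 2.6% of all genes), as Ltbr, the lymphotoxin beta receptor, rose by 0.40 ± 0.08 and Il13ra1 fell by 0.43 ± 0.09, and no fit without 1 library kept either call. Ifi27l2a, an interferon-induced gene, was at 35.6, 29.55 and 31.9 CPM against 13.2, 6.09 and 16.7 CPM and rose by 1.44 ± 0.27 (adjusted p = 0.0337), kept by 2 of the 6 fits without 1 library. Oas2, an antiviral enzyme, also not on the interferon list, rose by 1.11 ± 0.16 (adjusted p = 0.0165). The receptor gene Lilr4b was at 45.8, 44.8 and 28.0 CPM against 9.68, 13.7 and 13.1 CPM and rose by 1.70 ± 0.21 (adjusted p = 0.0141), as did its near-identical neighbour Lilrb4a, by 1.56 ± 0.21. Reads may be split between these paralogs, so their separate values are uncertain. Both are known from myeloid cells, whose 7 markers summed to 43.6 to 50.9 CPM in the p16-DTR-labelled libraries and 37.2 to 44.7 CPM in the controls. In arterial cells these sums were 42.0 to 52.0 and 36.5 to 43.2 CPM, where Lilr4b averaged 8.77 against 2.24 CPM. In general capillary cells Lilr4b averaged 35.2 against 17.8 CPM and was called (adjusted p = 0.0403 by edgeR). Whether myeloid RNA adds to the Lilr4b and Lilrb4a calls was not tested.

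Other calls with the smallest p included Pgm5, a phosphoglucomutase relative found at adherens junctions, at 21.3, 21.8 and 18.4 CPM against 106, 62.4 and 71.4 CPM (fell by 1.94 ± 0.19, adjusted p = 0.00673). The sialyltransferase St6gal1 (chr16:23224740-23360350, plus strand) was at 95.9, 87.1 and 91.2 CPM against 165, 167 and 187 CPM and fell by 0.91 ± 0.07 (adjusted p = 0.00662). Aff3, a transcription elongation factor, was at 571, 634 and 669 CPM against 327, 376 and 393 CPM (rose by 0.79 ± 0.09). Trim8, the kinase Pdpk1, the keratin Krt80 and Lgalsl rose by 0.57 to 0.84, each kept by 5 of the 6 fits without 1 library, and Fam107a and Pknox2 by 1.03 and 0.95, kept by 3 and 1 of them. Lsmem1 was at 5.85, 10.8 and 3.84 CPM against 23.1, 20.1 and 22.8 CPM and fell by 1.67 ± 0.29 (adjusted p = 0.0265), kept by 2 of those 6 fits. Of 24 tested p53 targets and arrest genes 3 were called (12.5%, beside 2.6% of all genes), Cdkn2a, Btg2 and the kinase Plk2, which fell by 0.63 ± 0.08. Of 16 tested cell cycle genes, 13 had negative values (median -0.26) and 1 was called (6.25%, beside 2.6% of all genes), the tubulin-binding Stmn1, which rose by 0.53 ± 0.11 (adjusted p = 0.0499). The collagen Col14a1, the semaphorin Sema3e and the Z-disc protein Pdlim3 fell by 1.34 to 1.49, and the choline transporter Flvcr2, the chemokine scavenger Ackr2 and the metalloprotease Mmp28 rose by 1.01 to 1.17.

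Whether the group effect differed between venous and general capillary cells was tested directly, with an interaction term that pairs the populations within each mouse. Of 13584 genes 50 were called (0.368%), and 20 of these were also called in venous cells. Lyve1, the hyaluronan receptor, averaged 2038 against 1860 CPM in venous cells and 938 against 585 CPM in general capillary cells. Its effect was lower in venous cells by 0.55 ± 0.05 on the log2 scale (adjusted p = 0.00535). Slco2a1 and Eln were the reverse. Slco2a1 averaged 1139 against 725 CPM in venous and 1220 against 1107 CPM in general capillary cells, a difference in effect of 0.51 ± 0.05 (adjusted p = 0.00566). Eln averaged 597 against 336 CPM in venous and 102 against 96.5 CPM in general capillary cells, a difference of 0.75 ± 0.09 (adjusted p = 0.00575). Vegfa rose in venous cells and averaged 544 against 522 CPM in general capillary cells (difference 0.55, adjusted p = 0.0144). Nr4a2 and Tnfaip3, which fell in venous cells, had lower effects there than in general capillary cells, with differences of -0.89 (adjusted p = 0.00575) and -0.60 (adjusted p = 0.0252).

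**Figure D5:**
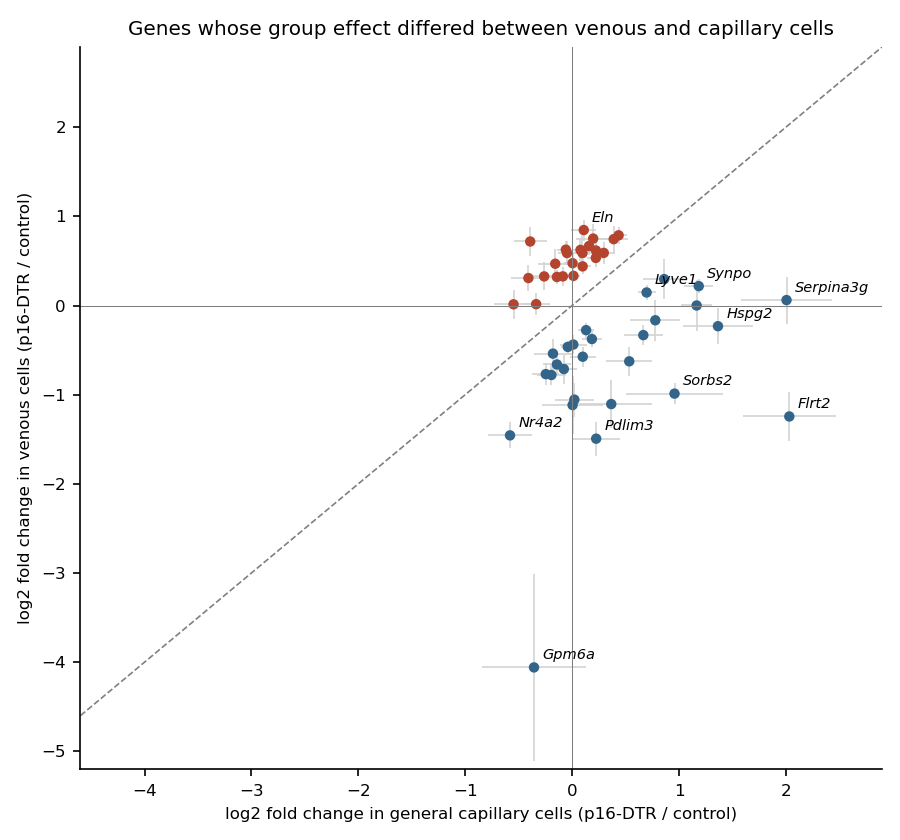
Group effect (log2, p16-DTR over control) in venous against general capillary cells for the 50 genes whose effect differed. Grey lines are standard errors and the dashed line marks equal effects. Red points have a higher value in venous cells and blue points a lower one, and the tested difference for Eln is 0.75.

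Of the other genes named above, Pdlim3, Rapgef4, Mecom, Calcrl, Aff3, Sorbs2 and Cytl1 were also among the 50. No difference was called for the following. Nr4a1 had -1.495 in venous and -0.81 in general capillary cells (difference -0.72, adjusted p = 0.155), and Egr1 had -1.23 and -1.37 (difference 0.12, adjusted p = 0.795). Klf10 had 1.06 and 1.00 (difference 0.07, adjusted p = 0.898). Selp and F5 were near 1 CPM in general capillary cells, so their effects could hardly be compared there. Of the 337 genes, 315 were tested in general capillary cells. There 303 had the same sign and 72 were called too, beside 1.03% of all genes tested. Both populations come from the same 6 mice. Against arterial cells, where venous and arterial cells share the mice and arterial cells were fewer (142 to 209 per library), 3 of 12560 genes were called (0.0239%; 710 at an unadjusted p under 0.05). These were the glutamate receptor subunit Gria3, the protease inhibitor Timp3 and Lhfpl2. The genes of next smallest p in each direction were not called. These were Zfp46 (adjusted p = 0.119) and Nr4a1 (0.132) with negative differences, and Antxr2 (0.248), Gcom1 (0.252), Slc8a1 (0.264), Gja4 (0.264) and Ptprr (0.280), the 5 of smallest p with positive differences. Timp3 averaged 1658 against 1989 CPM in venous cells and 1307 against 958 CPM in arterial cells (difference -0.72 ± 0.09, adjusted p = 0.0289). In arterial cells alone no gene of 11020 was called by edgeR, and 1130 had an unadjusted p under 0.05.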

How the data were processed

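Raw UMI counts of each gene in each barcode were deposited as 6 matrices, without normalization. Per the submitters' processing notes they were made with Cell Ranger 8.0.1 and mm10; the annotation release and cell-calling settings are not given in the sources used here. Each holds 31054 features, of which 31011 matched GENCODE M21 (GRCm38), used for positions. Libraries are 1 per mouse, and labels name no litter or day.

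The venous population, the comparison populations and the gene lists were chosen with earlier results of these data known, so no list is independent evidence. Counts were summed per library over the cells of a population. Levels are CPM (per 1e6 UMIs) of these sums. Groups were compared with the edgeR 4.0.16 quasi-likelihood test (R 4.3.3, filterByExpr, TMM factors, group alone, Benjamini-Hochberg adjustment over all genes tested, called under 0.05). The 7 genes of the rule were counted in the library size and not tested. Standard errors come from the F statistic. Differences between populations used an interaction term with the library as a block. Shares were compared with exact two-sided permutation tests over libraries. Exact binomial intervals (95%) and the floor of 3 counts cover counting error only. Doublets were predicted per library, from 2 simulated doublets per cell, and kept. The fitting code was tested on simulated data. Cells were handled in Python 3.11.15 with scipy 1.17.1 and numpy 2.4.6, tables with pandas 2.3.3, and figures with matplotlib 3.10.9.

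Named genes are the 4 markers, Cdkn2a, Cdkn1a, Hbegf and tdTomato; the 10 called genes of largest change in each direction whose groups do not overlap and whose higher group averages at least 20 CPM; the 10 of smallest p in each direction; in each list the 3 called members of smallest p or, with none called, the member of highest level; the 5 of smallest p in each direction in each difference between populations; and, untested, the 15 genes most above general capillary cells (pseudocount 5 CPM) and the 10 of largest residual variance between cells. Further genes in the text were chosen after their values were seen, as list members or as examples. Alternatives were RLE factors, library size alone, DESeq2 1.42.0, a block for the replicate number, all genes without a low-count filter, each library left out, stricter and looser rules, the rule after thinning, a 5% mitochondrial limit, predicted doublets or the deepest cells left out, equal cells per library and, chosen after the data were seen, cells with a Kit UMI left out.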

Additional observations from a re-analysis of the deposited data

Results flagged for a closer look

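The group effect differed between venous and general capillary cells, by the interaction test, for 50 genes, of which the 5 with the smallest p in each direction are given here. The effect in venous cells minus that in general capillary cells, on the log2 scale, was 1.11 for Gcom1, 0.75 for Eln, 0.68 for Rapgef4, 0.63 for Kank4 and 0.51 for Slco2a1. It was -1.72 for Pdlim3, -0.97 for Synpo, -0.64 for Dennd4a, -0.55 for Lyve1 and -0.41 for Dst. Lyve1, Pdlim3, Eln and Rapgef4 stayed called in all 6 fits without 1 library; the others were lost only without p16-DTR 3.

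Against arterial cells the difference was -3.01 for Gria3, -0.72 for Timp3 and -1.77 for Lhfpl2. Gria3 averaged 5.37 against 1.59 CPM in arterial cells, and it was kept by 3 of the 6 fits without 1 library, Timp3 by 2 and Lhfpl2 by 1.

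The tdTomato feature, which no comparison of the labels uses, gave 11 UMIs in venous cells of the p16-DTR-labelled libraries and 0 in the control libraries.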

How the results depend on the processing

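The count of 337 called genes became 756 of 21441 without a filter on low counts, 692 with DESeq2 (328 of the 337 among them) and 34 with a replicate block (32 among them); without 1 library it was 18 to 383. Same-numbered libraries of the groups did not deviate together over the tested genes (correlations 0.00430, -0.172 and 0.0128), and the pairing was not used. With so few libraries these correlations cannot exclude a day or batch shared by same-numbered libraries, and the labels name none. The 50 genes that differed from general capillary cells became 543 without the filter and 5 to 97 without 1 library. The 3 that differed from arterial cells became 157 without the filter, 6 without predicted doublets and 0 to 8 without 1 library. The share of venous cells with a Cdkn2a UMI was 2.43 percentage points higher than in controls with thinning and 4.59 without it. Other alternatives kept these counts within 1.5 times. Of 1588 refits of 92 single-gene values none reversed, 248 lost the call and 14 gained it; the cause was not tested. With 3 mice per group, shares cannot pass 0.05, and Cdkn2a, under 4 CPM, and tdTomato, under 1 CPM, are limited by depth.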
